A study of Mus musculus with 15 samples.

Results

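The 10 genes Cd34, Procr, Slamf1, Cd48, Ly6a, Cd27, Esam, Tek, Cd93 and Prom1 encode cell surface proteins used to sort or define haematopoietic stem and progenitor cells. They were taken by gene name from a table of 38315 genes, where each name was found on 1 row. All 10 of 10 reached 10 normalized counts in at least 4 libraries and were tested with 18941 genes in all. Total RNA of 15 mouse bone marrow samples had been sequenced. Of these, 7 came from marrow with acute myeloid leukaemia (AML) of transgenic mice with the genotype NUP98NSD1/FLT3ITD, 4 from Wild Type whole marrow and 4 from Wild Type lineage-negative marrow. The normal marrow is labelled Wild Type for both alleles, all mice were kept in a mouse facility from birth, and RNA was taken with TRIzol for stranded total RNA libraries. The labels used here do not give age, strain, the promoters that drive the alleles, how the lineage-positive cells were removed, or whether each sample is a separate animal. The p-values therefore measure the spread between samples.

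Stem and early progenitor cells of mouse marrow carry no marker of a mature lineage, and are told apart by sets of surface proteins rather than by any single one. Slamf1 (CD150) is present and Cd48 absent on classically sorted stem cells, whereas Cd48 is gained by progenitors and held by most mature leukocytes. Ly6a (Sca-1), Procr (the endothelial protein C receptor) and Esam mark stem cells and also endothelium, and Ly6a is an interferon-responsive gene found on lymphocytes as well. Cd34 and Cd27 mark cycling and multipotent progenitors, Tek is the angiopoietin receptor Tie2, and Cd93 and Prom1 (CD133) are used as markers of leukaemia stem cells in some human leukaemias. The labels name the mixture in each sample and not single cells: in bulk RNA, fewer cells of a type and less RNA per cell cannot be told apart.

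The libraries held an estimated 11.4 M to 35.1 M reads, and the 4 whole marrow libraries were the shallowest at 11.4 M to 17.2 M. The value of 3 reads, used as a floor, lay between 1.96 and 4.09 normalized counts. Olfactory and vomeronasal receptor genes, 1451 genes that marrow is not known to use, gave a background of 1.90 to 3.59 normalized counts per kb of exon in whole marrow. It was 0.102 to 0.133 in lineage-negative marrow and 0.124 to 0.354 in AML, except 1.01 in AML replicate 6. Lineage depletion was visible in the labelled groups: the summed level of 13 neutrophil genes ran from 422315 to 1492660 normalized counts in AML, from 459151 to 1218030 in whole marrow and from 1401 to 18689 in lineage-negative marrow. On the deposited scale the median tested gene was 0.67 higher (log2) in AML than in whole marrow and 0.59 higher in lineage-negative than in whole marrow, against 0.02 between AML and lineage-negative marrow. Differences from whole marrow are therefore also given after scaling by the trimmed mean of M values (TMM), which put these medians at -0.01, -0.09 and 0.03.

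A gene was called where limma, on log2(normalized count + 1), gave a Benjamini-Hochberg adjusted p under 0.05 and a log2 difference of at least 1. Against whole marrow, 6 of the 10 markers were called higher in AML (Cd34, Procr, Cd48, Ly6a, Cd27 and Cd93), beside 27.3% of all tested genes, and 1 was called lower (Tek), beside 11.3%. With TMM scaling 3 were called higher (Cd48, Ly6a and Cd93), beside 4.73% of all genes, and 3 lower (Slamf1, Esam and Tek), beside 16%. Against lineage-negative marrow, 3 were called higher in AML (Cd48, Ly6a and Prom1), beside 17.7%, and 4 lower (Cd34, Cd27, Esam and Tek), beside 12.5%. TMM gave 3 and 4 there too, beside 17.6% and 12.4%. The median difference of the 10 was 1.32 against whole marrow (0.63 with TMM) and -0.71 against lineage-negative marrow. Both comparisons share the AML samples.

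**Figure D1:**
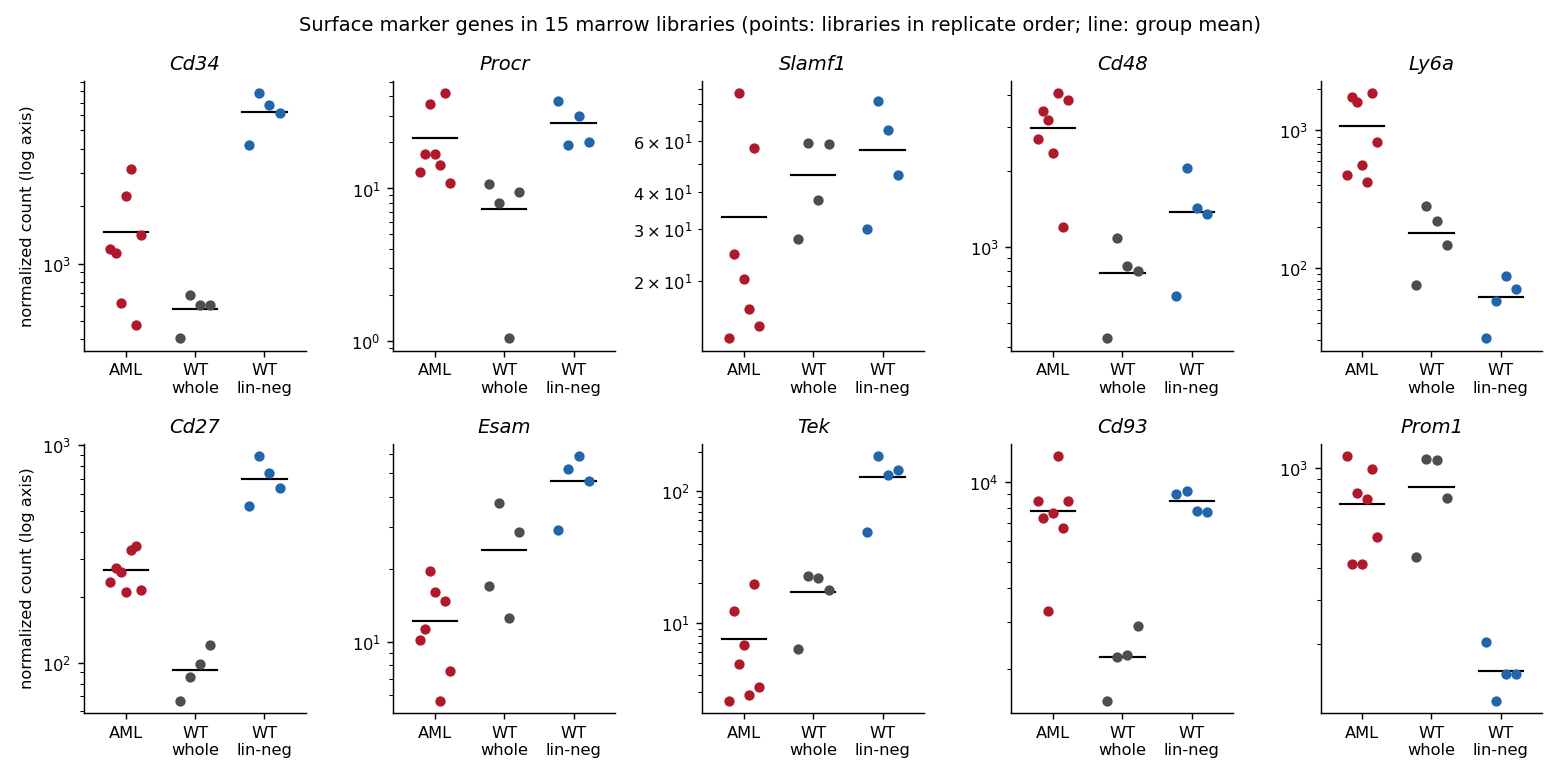
Normalized counts (vertical log axis, its range set for each gene) of the 10 marker genes in 7 AML, 4 whole and 4 lineage-negative (lin-neg) marrow libraries; points are libraries and lines group means. Ly6a lies above both normal groups in 7 of 7 AML libraries, whereas Tek and Cd34 lie below lineage-negative marrow in 7 of 7.

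Cd34 and Cd27, markers of multipotent and cycling progenitors, lay between the normal groups in AML. Cd34 (ENSMUSG00000016494) stands in the table on chromosome 1 from 194621127 to 194643587, plus strand, and Cd27 (ENSMUSG00000030336) on chromosome 6 from 125209585 to 125213973, minus strand. Their promoters, the 250 bases before the start in RefSeq's table for GRCm38.p6, are shown because both genes have the same order over the groups. Capitals mark matches to motifs that were sought as letters on both strands. The motif of the ETS transcription factors, a family to which several regulators of blood cell genes belong, was searched as AGGAAG. The motif of the GATA factors, which act in stem, erythroid and mast cells, was searched as GATAA. The RUNX motif, bound by core binding factors of early blood cells, was searched as TGTGGT. An E-box, the site of the helix-loop-helix factors, was searched as CAGCTG.
Cd34, chr1:194938571-194938820, plus strand: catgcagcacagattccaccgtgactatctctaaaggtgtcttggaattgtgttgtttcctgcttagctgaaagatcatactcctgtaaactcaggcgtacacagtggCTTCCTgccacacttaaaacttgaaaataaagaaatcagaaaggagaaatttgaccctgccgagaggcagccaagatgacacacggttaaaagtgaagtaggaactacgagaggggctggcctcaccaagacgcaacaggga
Cd27, chr6:125237028-125237277, minus strand: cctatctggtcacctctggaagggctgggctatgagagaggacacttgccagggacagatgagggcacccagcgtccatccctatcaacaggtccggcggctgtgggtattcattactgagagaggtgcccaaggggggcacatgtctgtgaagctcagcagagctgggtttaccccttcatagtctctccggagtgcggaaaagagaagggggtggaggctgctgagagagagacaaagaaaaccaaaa
Cd34 holds 1 ETS match on the reverse strand, and Cd27 holds no match. The ETS letters occur in 29.48% of 32851 promoters of the same length and in 3 of the 8 promoters found for 7 of the markers.

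Cd34 was at 1199, 1142, 620, 2264, 3127, 477 and 1418 normalized counts in AML replicates 1 to 7. It was at 405, 681, 608 and 610 in whole marrow and at 4185, 7826, 6814 and 6158 in lineage-negative marrow. All 7 AML values were below the lowest lineage-negative one, and 5 of 7 were above the highest whole marrow one. AML was 2.32 lower than lineage-negative marrow (log2, SE 0.37, limma adjusted p = 4.36e-05). The difference of 1.11 from whole marrow (SE 0.37, limma adjusted p = 0.0146) fell to 0.41 with TMM scaling (adjusted p = 0.393). It also fell under the threshold of 1 without AML replicate 4 (0.96), without AML replicate 5 (0.88) or without whole marrow replicate 1 (0.95). Cd34 spread 6.55-fold among the 7 AML libraries, against 1.68-fold among 4 in whole and 1.87-fold among 4 in lineage-negative marrow. Its SD was 64.0% of the mean in AML, 20.7% in whole and 24.6% in lineage-negative marrow.

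Cd27, a co-stimulatory receptor of the tumour necrosis factor receptor family, was much more even. It ran from 212 to 346 in AML with a median of 262. Its values were 66.4, 85.8, 98.1 and 120.1 in whole marrow and 526, 894, 750 and 635 in lineage-negative marrow, so that no 2 groups overlapped. AML was 1.53 higher than whole marrow (SE 0.21, limma adjusted p = 1.15e-05) and 1.38 lower than lineage-negative marrow (SE 0.21, adjusted p = 2.65e-05). With TMM scaling the first difference was 0.84 (adjusted p = 0.00122), short of the fold threshold. Cd70, the Cd27 ligand, chosen after its values were seen, was listed at 0 in 4 of 7 AML, 2 of 4 whole and 4 of 4 lineage-negative libraries. Across all genes, 251 of 18941 were, like Cd34 and Cd27, called higher than whole and lower than lineage-negative marrow on the deposited scale. With TMM neither Cd34 nor Cd27 was called higher than whole marrow.

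Tek and Esam, which mark stem cells and endothelium, had their lowest group means in AML. Tek (ENSMUSG00000006386, chromosome 4, 94627526 to 94763213, plus strand) was at 2.54, 12.4, 4.90, 6.76, 2.83, 19.7 and 3.24 normalized counts in AML replicates 1 to 7, of which replicates 1, 5 and 7 were at or under the floor of 3 reads. It was at 6.28, 22.8, 21.9 and 17.7 in whole marrow and at 49.0, 185, 133 and 146 in lineage-negative marrow. Each AML value lay below each lineage-negative one, with a difference of -4.08 (SE 0.52, limma adjusted p = 2.61e-06). The difference of -1.26 from whole marrow (SE 0.52, limma adjusted p = 0.0401; -1.88 with TMM) was not called without AML replicate 1 (-1.10), 3 (-1.23), 5 (-1.12) or 7 (-1.15). The same held without whole marrow replicate 2 (-1.09), 3 (-1.11) or 4 (-1.2). In whole marrow Tek stood at 0.371 to 2.04 times the receptor background per kb, and after that background was subtracted the difference was -0.16 (adjusted p = 0.85).

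Esam (ENSMUSG00000001946, chromosome 9, 37439374 to 37449615, plus strand), an adhesion molecule of tight junctions, ran from 5.66 to 19.6 in AML with a median of 11.2. It was at 17.1, 37.5, 12.5 and 28.7 in whole marrow and at 29.05, 52.0, 59.1 and 46.3 in lineage-negative marrow. AML and lineage-negative values did not overlap, and AML was lower by -1.90 on the log2 scale (SE 0.39, limma adjusted p = 0.000485). Against whole marrow the difference was -0.90 (SE 0.39, adjusted p = 0.0507) on the deposited scale and -1.56 with TMM (adjusted p = 0.00402). It was called without AML replicate 3 (-1.02) or without whole marrow replicate 3 (-1.15), and was -0.31 with the background subtracted (adjusted p = 0.576).

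Of the partners of Tek, Angpt1 and Tie1 were also lower in AML than in lineage-negative marrow. Angpt1, the ligand of Tek, was at 149 ± 88.0 (SD, n = 7) in AML, 239 ± 57.4 (n = 4) in whole and 2229 ± 601 (n = 4) in lineage-negative marrow, which is -4.02 between AML and lineage-negative marrow (limma adjusted p = 3.53e-09). Tie1, the second receptor of the Tek family, was 2.75 lower on that scale, with 61.6 ± 59.5 (SD, n = 7) against 327 ± 41.8 (n = 4; limma adjusted p = 1.86e-05). The ligand Angpt2 was at 39.6 ± 15.8 (SD, n = 7) against 64.7 ± 40.3 (n = 4; limma adjusted p = 0.198), and Angpt4, which was too low to be tested, at 3.68 ± 2.25 (n = 7) against 2.53 ± 2.89 (n = 4). Both were named after their values were seen. Of 18 endothelial genes tested, 8 were higher and 6 lower in AML than in lineage-negative marrow, beside 17.7% and 12.5% of all tested genes. Against whole marrow 1 was higher and 3 lower, beside 27.3% and 11.3%. With TMM these were 0 and 6, beside 4.73% and 16%. The endothelial cadherin Cdh5 was at 146 ± 98.9 (SD, n = 7) in AML and 5.18 ± 9.2 (n = 4) in lineage-negative marrow. The summed level of 20 endothelial genes was 2524 to 4195 in AML, 1425 to 2363 in whole and 5157 to 6164 in lineage-negative marrow, and its part in the Tek and Esam values was not tested.

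**Figure D2:**
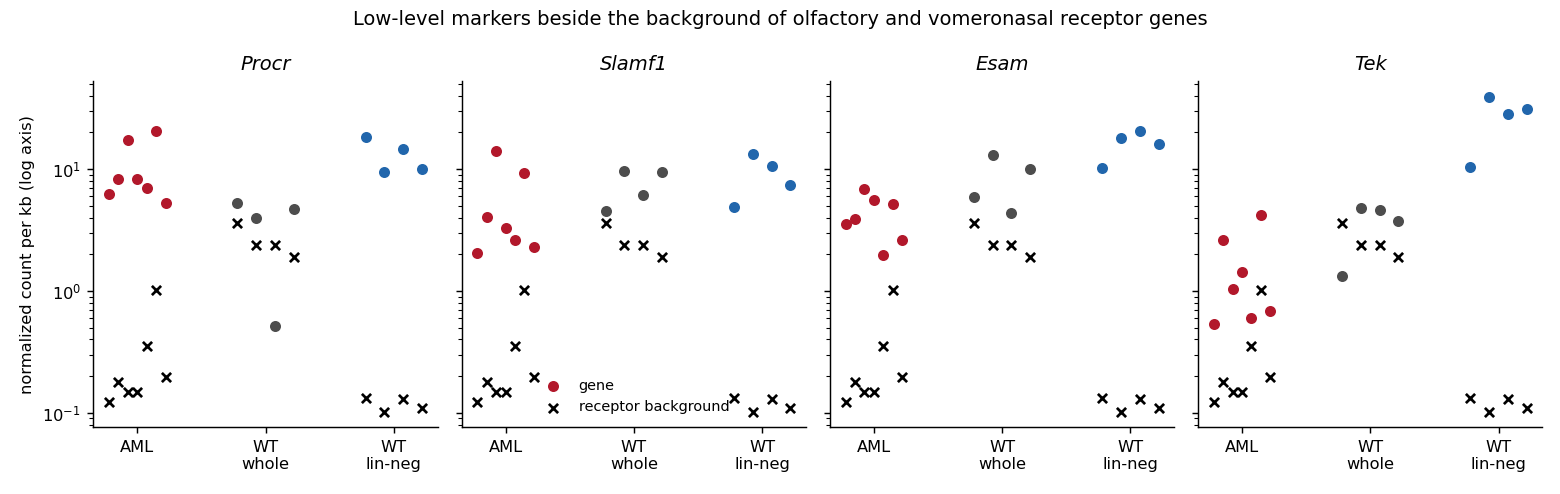
Normalized counts per kb of exon (vertical log axis) of Procr, Slamf1, Esam and Tek in each library, coloured by group, beside the receptor gene background of the same library (crosses). In whole marrow replicate 3 Procr, and in replicate 1 Tek, lie under the background, whereas in AML and lineage-negative marrow each gene lies above it in every library.

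The SLAM family protein Cd48 was higher in AML than in both normal groups, whereas Slamf1 was not called against either on the deposited scale. Cd48 (ENSMUSG00000015355, chromosome 1, 171509577 to 171532826) and Slamf1 (ENSMUSG00000015316, chromosome 1, 171594695 to 171628752) lie in the same family cluster on the plus strand. Their promoters (RefSeq, GRCm38.p6) are shown because neighbouring genes of 1 family had different levels; capitals mark the motifs named above.
Cd48, chr1:171681742-171681991, plus strand: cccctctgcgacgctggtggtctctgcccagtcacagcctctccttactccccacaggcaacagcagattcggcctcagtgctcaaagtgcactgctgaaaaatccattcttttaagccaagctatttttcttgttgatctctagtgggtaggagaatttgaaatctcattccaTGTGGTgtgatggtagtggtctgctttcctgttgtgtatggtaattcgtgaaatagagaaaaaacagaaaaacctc
Slamf1, chr1:171766882-171767131, plus strand: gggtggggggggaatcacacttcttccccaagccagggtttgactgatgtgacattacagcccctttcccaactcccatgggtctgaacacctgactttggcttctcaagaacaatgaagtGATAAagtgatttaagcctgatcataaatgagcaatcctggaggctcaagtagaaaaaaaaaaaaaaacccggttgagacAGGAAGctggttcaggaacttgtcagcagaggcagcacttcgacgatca
Cd48 holds 1 RUNX match, letters found in 14.05% of all promoters. Slamf1 holds 1 GATA match (22.58% of all promoters) and 1 ETS match. A match in letters is not a measured binding site.

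Cd48, the ligand of the receptors CD2 and CD244, was at 2689, 3459, 3194, 2351, 4069, 1193 and 3830 in AML replicates 1 to 7. It was at 433, 1084, 837 and 798 in whole marrow and at 639, 2064, 1427 and 1348 in lineage-negative marrow. Each AML value exceeded each whole marrow value, and all but replicate 6 exceeded lineage-negative marrow. The difference from whole marrow was 1.89 (SE 0.33, limma adjusted p = 8.81e-05; 1.2 with TMM, adjusted p = 0.00396). The difference from lineage-negative marrow was 1.14 (SE 0.33, limma adjusted p = 0.00780), and 0.81 (adjusted p = 0.0502) without lineage-negative replicate 1. Per kb of exon, Cd48 had the highest mean of the 10 markers in AML (2497 normalized counts per kb) and in whole marrow (663), and was second to Cd93 in lineage-negative marrow (1152 against 1265).

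Slamf1 was at 12.7, 24.7, 87.0, 20.3, 16.05, 56.8 and 14.02 in AML, so that replicates 3 and 6 stood above the other 5. It was at 27.8, 59.0, 37.6 and 58.7 in whole marrow and at 29.95, 82.0, 65.2 and 45.7 in lineage-negative marrow. The difference of AML from lineage-negative marrow was -0.99 (SE 0.47, limma adjusted p = 0.0958), and it was called without AML replicate 3 (-1.28) or 6 (-1.17). The difference from whole marrow depended on the scaling: -0.74 as deposited (SE 0.47, adjusted p = 0.176), -1.42 with TMM (adjusted p = 0.0271), -1.03 without AML replicate 3, and 0.04 with the background subtracted. Between the normal groups it was 0.25 as deposited and -0.44 with TMM, with adjusted p = 0.698 and 0.510.

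Within a library, the ratio of Slamf1 to Cd48 cancels the scaling factor of that library, apart from the pseudocount of 1. Its log2 mean was -6.70 ± 1.40 (SD, n = 7) in AML, -4.07 ± 0.31 (n = 4) in whole and -4.57 ± 0.22 (n = 4) in lineage-negative marrow. It was below every whole marrow value in 6 of 7 AML libraries, and the difference was -2.63 (2-sided exact permutation p = 0.0121, adjusted over 9 ratio tests 0.0545). With the background subtracted it was -1.86, with 5 of 7 below (exact permutation p = 0.0485, adjusted 0.0873). Against lineage-negative marrow the difference was -2.13 (exact permutation p = 0.0303, adjusted 0.0655), with 6 of 7 AML libraries below. Neither passed an adjusted p of 0.05. Without AML replicate 6 the differences were -3.02 and -2.52, each with an adjusted exact permutation p of 0.0286.

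Of 14 SLAM family genes and adaptors listed, 12 passed the filter and were tested, Cd48 and Slamf1 among them. In AML 8 were called higher and 0 lower than in whole marrow (4 and 1 with TMM). Their median was 1.57 beside 0.67 for all genes. Of all tested genes 27.3% were called higher and 11.3% lower there (4.73% and 16% with TMM). Against lineage-negative marrow 11 of 12 were called higher, all but Slamf1, beside 17.7% of all genes. The median there was 2.24 beside 0.02. A gene can pass the filter through the AML libraries alone, so these counts are not independent of a high level in AML. Cd244a, the receptor that binds Cd48, was at 1099 ± 441 (SD, n = 7) in AML, 214 ± 85.1 (n = 4) in whole and 394 ± 50.6 (n = 4) in lineage-negative marrow, with limma adjusted p = 3.18e-06 and 0.000537. Slamf8, expressed by macrophages, was at 611 ± 319 (SD, n = 7), 70.7 ± 23.8 (n = 4) and 6.92 ± 7.2 (n = 4) in the same order. The other Cd48 partner, Cd2 of T cells, was at 404 ± 326 (SD, n = 7), 196 ± 41.0 (n = 4) and 19.9 ± 18.6 (n = 4). The summed level of 14 monocyte genes ran from 73447 to 136087 in AML, from 18262 to 39711 in whole and from 18946 to 29735 in lineage-negative marrow, and its part in these differences was not tested.

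**Figure D3:**
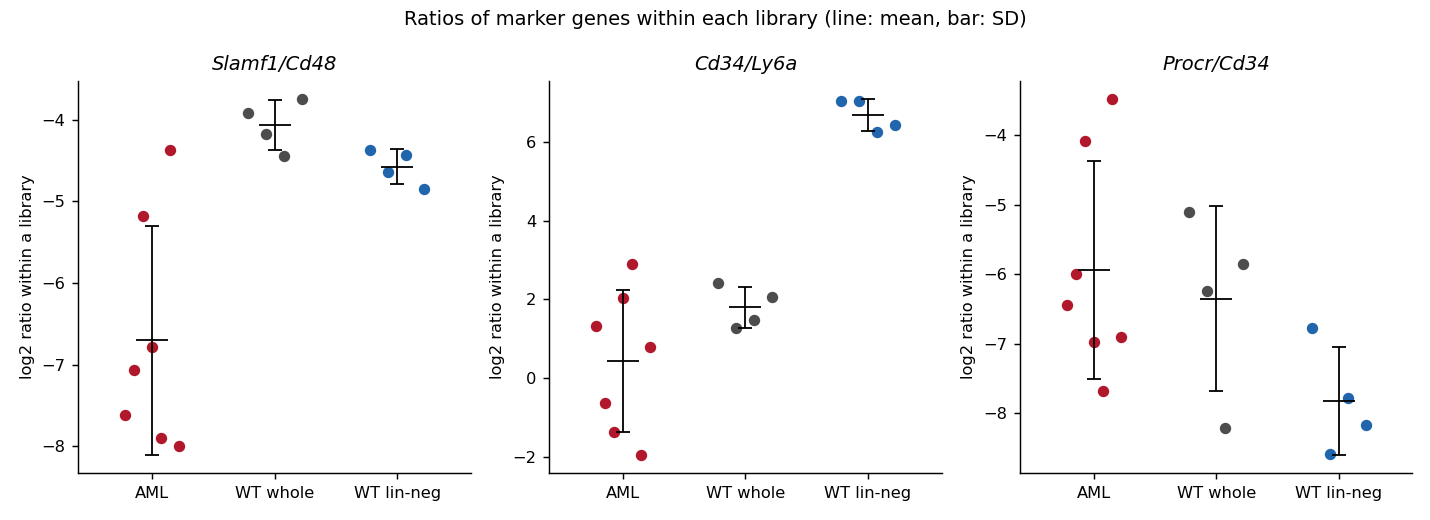
Log2 ratio of Slamf1 to Cd48, Cd34 to Ly6a and Procr to Cd34 within each library (vertical axis), by group; points are libraries, lines means and bars SD. The AML libraries spread more than either normal group in each ratio, with SDs of 1.40, 1.81 and 1.57, and 7 of 7 lie below lineage-negative marrow in Cd34 to Ly6a.

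Ly6a and Procr, which mark stem cells and endothelium, were both higher in AML than in whole marrow on the deposited scale, and Ly6a also with TMM. Ly6a (ENSMUSG00000075602, chromosome 15, 74866726 to 74869880, minus strand) was at 477, 1757, 1598, 555, 418, 1855 and 823 in AML replicates 1 to 7. It was at 75.4, 281, 219 and 146 in whole marrow and at 30.9, 58.2, 87.3 and 70.5 in lineage-negative marrow. Its level in lineage-negative marrow, the group depleted of mature cells, was thus the lowest of the 3, and each AML value lay above each normal one. The difference was 3.94 from lineage-negative marrow (SE 0.44, limma adjusted p = 4.65e-07), a 17.3-fold difference of means, and 2.47 from whole marrow (SE 0.44, adjusted p = 0.000103; 1.78 with TMM). Between the normal groups it was -1.47 (SE 0.49, adjusted p = 0.0140), and not called without whole marrow replicate 2 (adjusted p = 0.0547) or lineage-negative replicate 1 (adjusted p = 0.0538).

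Some Ly6 genes are close copies of each other, so reads may have been shared between those in counting. Of 22 Ly6 family genes listed, 12 passed the filter and were tested, Ly6a among them. In AML 6 were higher and 0 lower than in whole marrow, beside 27.3% and 11.3% of all tested genes. With TMM these were 4 and 0, beside 4.73% and 16%. Against lineage-negative marrow 10 were higher and 0 lower, beside 17.7% and 12.5%. A gene can pass the filter through the AML libraries alone, so these counts are not independent of a high level in AML. Ly6a2 was at 5139 ± 1358 (SD, n = 7) in AML, 2692 ± 804 (n = 4) in whole and 230 ± 143 (n = 4) in lineage-negative marrow. Ly6i, a marker of monocytes, was at 202 ± 122 (SD, n = 7), 20.1 ± 6.4 (n = 4) and 3.37 ± 1.36 (n = 4).

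Procr (ENSMUSG00000027611, chromosome 2, 155593037 to 155597391, plus strand) ran from 10.8 to 42.0 in AML with a median of 16.9, and replicates 3 and 6, at 35.5 and 42.0, stood above the rest. It was at 10.8, 8.04, 1.04 and 9.55 in whole marrow and at 37.2, 19.4, 29.97 and 20.2 in lineage-negative marrow. The difference from whole marrow was 1.52 (SE 0.49, limma adjusted p = 0.0105), 0.91 with TMM (adjusted p = 0.204) and 0.94 without whole marrow replicate 3 (adjusted p = 0.0743). Whole marrow values stood at 0.216 to 2.48 times the background per kb, and with the background subtracted the difference was 2.53 (adjusted p = 0.000529). Against lineage-negative marrow it was -0.43, with a 95% interval of -1.44 to 0.59 (adjusted p = 0.5). Of its partners, the thrombin receptor F2r was 2.87 lower in AML than in lineage-negative marrow (196 ± 75.7, SD, n = 7, against 1372 ± 422, n = 4; limma adjusted p = 2.91e-07). The related receptor F2rl1 was 1.35 higher (32.6 ± 12.6, SD, n = 7, against 11.9 ± 3.91, n = 4; limma adjusted p = 0.00541), and thrombomodulin, Thbd, was 1.01 higher (970 ± 274, SD, n = 7, against 485 ± 191, n = 4; limma adjusted p = 0.00454). F2rl1 and Thbd were chosen after their values were seen.

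The ratio of Cd34 to Ly6a within a library was 0.44 ± 1.81 (log2, SD, n = 7) in AML, 1.80 ± 0.52 (n = 4) in whole and 6.70 ± 0.41 (n = 4) in lineage-negative marrow. All 7 AML libraries lay below lineage-negative marrow, with a difference of -6.25 (2-sided exact permutation p = 0.00606, the smallest that 330 splits allow, adjusted 0.0545; -5.85 with adjusted 0.0286 without AML replicate 6). The difference from whole marrow was -1.36 (exact permutation p = 0.2, adjusted 0.225). Procr to Cd34 was 1.89 higher in AML than in lineage-negative marrow (exact permutation p = 0.0364, adjusted 0.0655).

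In AML, Cd93 stood apart from whole marrow and Prom1 from lineage-negative marrow. Cd93 (ENSMUSG00000027435, chromosome 2, 148278560 to 148285483, minus strand), a lectin-like receptor of myeloid cells, progenitors and endothelium, was at 8451, 7315, 3290, 7613, 12477, 6736 and 8502 in AML. It was at 1513, 2212, 2253 and 2879 in whole marrow and at 9030, 9218, 7804 and 7738 in lineage-negative marrow. The AML values all exceeded whole marrow, by 1.76 (SE 0.26, limma adjusted p = 2.28e-05; 1.06 with TMM, adjusted p = 0.00129). Against lineage-negative marrow the difference was -0.21 (adjusted p = 0.552), with a 95% interval of -0.76 to 0.34.

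Prom1 (ENSMUSG00000029086, chromosome 5, 44150962 to 44259374, minus strand), a membrane protein of cell protrusions, was at 1113, 414, 797, 417, 751, 986 and 534 in AML. It was at 442, 1084, 1071 and 757 in whole marrow and at 205, 119, 152 and 153 in lineage-negative marrow. Of the 10 markers it had the most negative difference between lineage-negative and whole marrow, -2.35 (SE 0.33, limma adjusted p = 6.68e-06). AML was 2.11 above lineage-negative marrow (SE 0.29, limma adjusted p = 7.69e-06), and each AML value exceeded each lineage-negative one. Against whole marrow the difference was -0.24 (SE 0.29, adjusted p = 0.492) as deposited and -0.93 with TMM (adjusted p = 0.00862), not past the fold threshold. The neutrophil gene sums given above were also lowest in lineage-negative marrow, and their part in the Prom1 values was not tested.

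**Figure D4:**
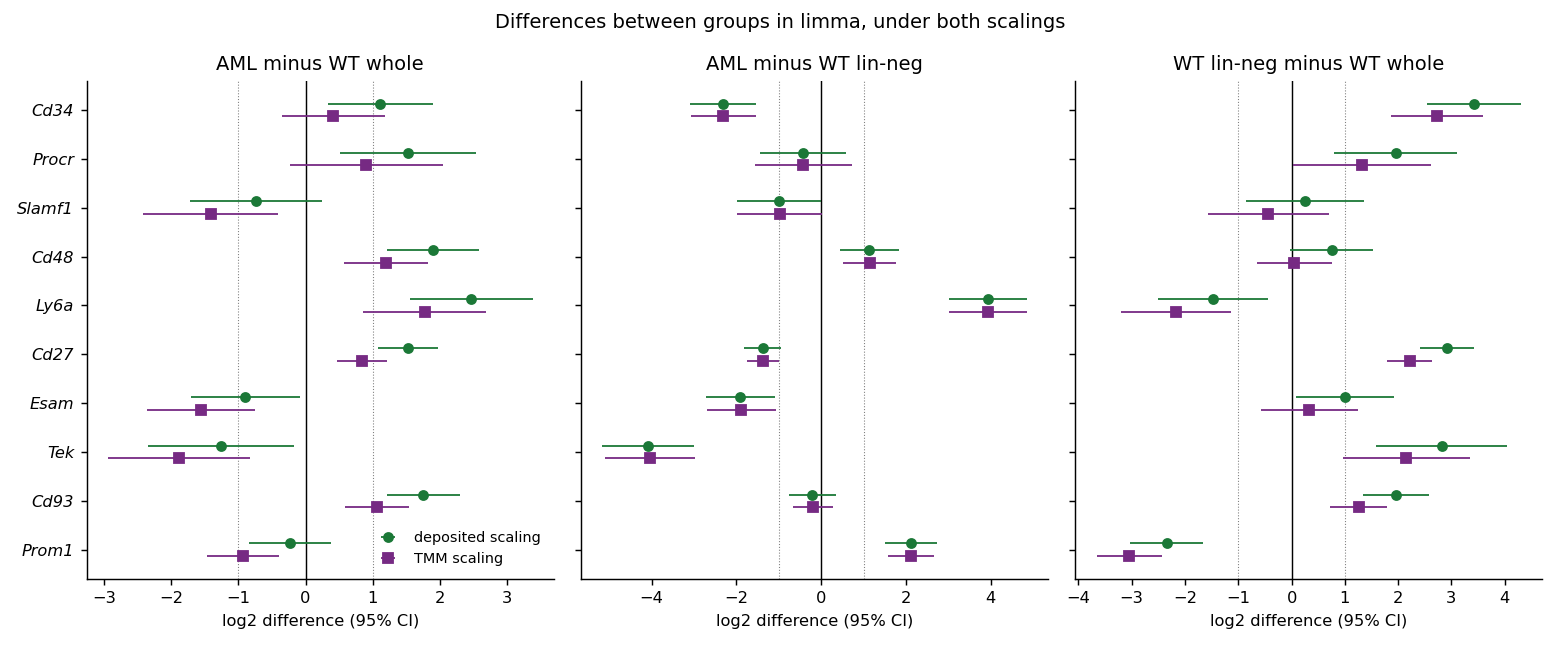
Log2 differences (horizontal axis) with 95% confidence intervals for the 10 markers in the 3 comparisons, with deposited scaling (circles) and TMM scaling (squares); dotted lines mark the fold threshold of 1. Cd34 against whole marrow is 1.11 as deposited and 0.41 with TMM, while in AML against lineage-negative marrow the pairs lie close together.

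Between the normal groups, 5 markers were called higher in lineage-negative than in whole marrow (Cd34, Procr, Cd27, Tek and Cd93), beside 33.1% of all genes, and 2 lower (Ly6a and Prom1), beside 17.2%. TMM gave 4 higher and 2 lower, beside 11% and 24.8%, and Procr was the call it lost (1.33, adjusted p = 0.0750). The 3.43 of Cd34 (SE 0.42, limma adjusted p = 1.69e-06), 2.91 of Cd27 (SE 0.24, adjusted p = 3.09e-08) and 2.82 of Tek (SE 0.59, adjusted p = 0.000348) were the largest. Cd93 differed by 1.96 (SE 0.30, limma adjusted p = 1.41e-05) and Procr by 1.95 (SE 0.55, adjusted p = 0.00435). Esam was at 1.01 (adjusted p = 0.0526), and was called without whole marrow replicate 2 (1.25) or lineage-negative replicate 1 (1.21). Cd48 was at 0.75 (adjusted p = 0.0832) and was called without lineage-negative replicate 1 (1.08).

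Among other surface markers and stem cell genes, AML differed from lineage-negative marrow in both directions. Of 34 further surface markers 13 were higher and 10 lower than lineage-negative marrow, beside 17.7% and 12.5% of all tested genes. Against whole marrow 9 were higher and 5 lower, beside 27.3% and 11.3%. With TMM these were 3 and 9, beside 4.73% and 16%. Flt3, the receptor that carries the internal tandem duplication in this model, was at 2975 ± 1219 (SD, n = 7) in AML, 273 ± 71.4 (n = 4) in whole and 1728 ± 290 (n = 4) in lineage-negative marrow, and reads of the mutant allele cannot be told apart in these values. The integrin Itga2b (CD41) was at 135 ± 88.0 (SD, n = 7), 462 ± 151 (n = 4) and 2311 ± 561 (n = 4) in the same order. Kit, the stem cell factor receptor, named after its values were seen, was 2.62 lower in AML than in lineage-negative marrow (limma adjusted p = 2.77e-07). The largest rises over lineage-negative marrow without overlap of the groups were in Cd38 (4.38), Csf2ra (2.37) and Alcam (1.96). Of 24 genes linked to stem cells, 6 were higher and 14 lower than lineage-negative marrow, with a median of -1.66 beside 0.02. Against whole marrow 5 of them were higher and 7 lower, and with TMM 3 and 10. Gata2 is a stem cell transcription factor also used by mast cells and megakaryocytes. It was at 102 ± 62.8 (SD, n = 7) in AML against 3121 ± 692 (n = 4) in lineage-negative marrow, which is -5.15. Of the 6 higher genes, Ifitm3 was at 8711 ± 2373 (SD, n = 7) against 765 ± 366 (n = 4), which is 3.58. Nupr1 was 3.23 and Sult1a1 2.53 higher than lineage-negative marrow. The summed level of 12 mast cell and basophil genes ranged from 3510 to 8327 in AML against 33211 to 52946 in lineage-negative marrow. That of 13 megakaryocyte genes ranged from 1676 to 2675 against 3882 to 4963, and their part in these differences was not tested.

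The remaining lists are given by their counts. Of all tested genes, 17.7% were called higher and 12.5% lower in AML than in lineage-negative marrow. Against whole marrow the shares were 27.3% and 11.3%, or 4.73% and 16% with TMM. Genes can pass the filter through a single group. Of 25 ligands, receptors and signalling partners of the 10 markers, 7 were higher and 5 lower in AML than in lineage-negative marrow, and 3 and 4 against whole marrow (0 and 7 with TMM). Of 23 genes of multipotent and granulocyte-monocyte progenitors, 5 were higher and 10 lower than in lineage-negative marrow, and 8 and 2 against whole marrow (5 and 2 with TMM). Against lineage-negative marrow, 13 of 13 neutrophil, 14 of 14 monocyte, 10 of 12 B cell and 13 of 16 T and NK cell genes were higher in AML. Of 13 stromal genes 6 were higher and 2 lower, and of 14 erythroid genes 0 were higher and 7 lower. Of 8 mast cell and basophil genes 7 were lower, and of 13 megakaryocyte genes 1 was higher and 8 lower. Against whole marrow, 14 of 14 erythroid, 11 of 12 B cell and 10 of 13 megakaryocyte genes were lower in AML. So were 6 of 8 mast cell and basophil and 2 of 13 stromal genes. With TMM scaling 14, 11, 10, 7 and 8 genes of these lists, in the same order, were lower against whole marrow. Higher there were 8 of 14 monocyte genes (4 with TMM) and 6 of 16 T and NK cell genes (0 with TMM, with 2 lower), while 0 of 13 neutrophil genes were called in limma, and 0 had an unadjusted p under 0.05 (0 higher and 2 lower with TMM).

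The 7 AML marrows were not alike in these markers. Replicates 3 and 6 had the highest Slamf1 and Procr and the lowest Cd34, and with replicate 2 the highest Ly6a. Replicate 5 had the highest Cd34 and Cd93 and the lowest Ly6a. Over the 45 pairs of markers, computed after these values were seen, 7 had an exact permutation p under 0.05 and 0 had an adjusted p under 0.05. Procr and Slamf1 went together (Pearson r = 0.953, exact permutation p = 0.00575, adjusted 0.128; Spearman rho = 0.893, exact p = 0.0123, adjusted 0.179; n = 7), and r was 0.865 without replicates 3 and 6. Cd34 and Ly6a went opposite ways (r = -0.826, exact permutation p = 0.0244, adjusted 0.22; rho = -0.857, exact p = 0.0238, adjusted 0.179; n = 7), and r was -0.661 without replicates 5 and 6. Cd93 went the opposite way to Slamf1 (r = -0.840, exact permutation p = 0.00675, adjusted 0.128), and r was -0.422 without replicates 3 and 6. It also went opposite to Esam (r = -0.846, exact permutation p = 0.00853, adjusted 0.128), and r was -0.745 without replicates 3 and 5. The summed level of 16 T and NK cell genes was 2700, 6227, 8101, 3127, 2737, 9474 and 2223 in replicates 1 to 7. It was thus highest in replicates 2, 3 and 6, and its part in the Ly6a, Slamf1 and Procr values was not tested.

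**Figure D5:**
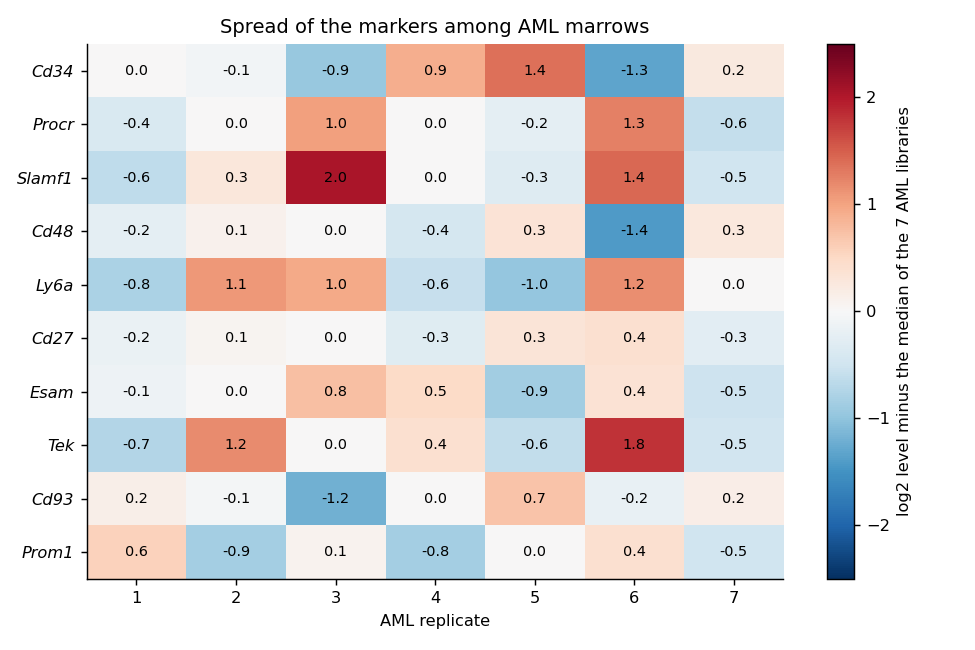
Log2 level of each marker (rows) in AML replicates 1 to 7 (columns) minus its median over the 7 libraries, as colour and printed value. Replicates 3 and 6 are above the median in Procr, Slamf1 and Ly6a and below it in Cd34.

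For each marker the nearest profiles were sought among 10392 candidate genes, by the root mean square difference of centred log2 values over the 15 libraries. Candidates passed the filter, had a gene symbol and reached a mean level of 100 normalized counts. Predicted genes and genes under clone or accession names were left out. Nearest to Prom1 were Trem3 (0.21), Megf9 (0.25) and C5ar2 (0.25), and nearest to Cd93 were Atp10a (0.24), Pkp4 (0.27) and Cln6 (0.27). Cd48 had Arhgap5 (0.26), Gng10 (0.27) and Prcp (0.27), and Cd27 had Mdn1 (0.27), Utp20 (0.27) and Wdr43 (0.30). The markers with lower or more uneven values had no candidate as close: the nearest were Ehd3 to Slamf1 (0.42), Dnmt3b to Cd34 (0.44), Bola3 to Esam (0.52), Ccl5 to Ly6a (0.58), Rab4a to Tek (0.63) and Plcg1 to Procr (0.66). Slamf1, Esam, Tek and Procr averaged 42.5, 24.5, 42.3 and 19.0 over the 15 libraries, below every candidate, so genes of their own level were not searched. Ccl5, a chemokine of T and NK cells, was at 562, 110 and 37.8 on average in AML, whole and lineage-negative marrow. Ly6a was at 1069, 180 and 61.7 there. Next nearest to Ly6a were Gbp4 (0.65), at 500, 122 and 32.9, and Nupr1 (0.65), at 360, 73.8 and 36.5.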

How the data were processed

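Total RNA of 15 bone marrow samples was analysed; groups and replicate numbers come from the sample titles. The deposited table holds a signal per gene: read counts that the authors divided by a size factor per library, per the file headers and the table's values. The submitters' processing notes name Partek, STAR, DESeq2 and mm10; versions, strand setting and quantifier are not given in the sources used here. Gene positions are the table's own: 0 of 10 starts equal those of the GRCm38 annotation, so their build is not settled. Between 83.7% and 88.7% of low values were whole multiples of 1 read (tolerance 0.02), which gave the estimated depth but not reads for a count test.

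Genes with at least 10 normalized counts in at least 4 samples were kept, 18941 of 38315. One limma 3.58.1 model in R 4.3.3 held the 3 group means of log2(value + 1), with a trended prior. Fold changes are on that scale, which understates low genes. Ratios within a library had exact permutation tests. Promoters came from RefSeq, with 7 of 10 genes matched (not Ly6a, Esam and Cd93), and motifs were searched as letters. The markers and the 16 gene lists (259 genes) were chosen with earlier results of these data known. Genes named from a list are, at most, the 3 called genes with the largest rise or fall and no overlap between groups, beside defining markers given by their level. The model was tested on simulated data. Alternatives were TMM scaling, differences relative to the median gene, other pseudocounts and filters, fits of 2 groups only, a replicate block and leaving out each library; background subtraction and leaving out AML replicates 5 and 6 were added after seeing the data.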

Additional observations from a re-analysis of the deposited data

Results flagged for a closer look

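Of 39 groups of marker levels and ratios examined for a sample far from the others, 1 was picked out, where chance alone picks about 1 in 20. Procr in whole marrow replicate 3 stood at 1.03 on the log2(normalized count + 1) scale, which is 1.04 normalized counts, and its gap to the next library took 84.9% of the range of the 4 libraries. Without it the difference of AML from whole marrow in Procr was 0.94 in place of 1.52.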

How the results depend on the processing

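With TMM scaling, and relative to the median gene, 3 markers were called higher and 3 lower in AML than in whole marrow, in place of 6 and 1. The 1 lower call, Tek, became 0 with a pseudocount of 5, with a mean of at least 50 required, with only the groups compared in the model and with the background subtracted. Leaving out each library in turn gave 0 to 2 lower calls, which were not always Tek. Without AML replicate 3 the 2 were Esam and Slamf1, and without whole marrow replicate 3 the 1 was Esam. With a mean of at least 50 required, which removes 4 markers, 2 were lower in AML than in lineage-negative marrow and 3 higher in lineage-negative than in whole marrow; leaving out single libraries gave 1 to 2 lower there. Slamf1 turned from -0.74 to 0.0366 in AML against whole marrow with the background subtracted, and from 0.25 to -0.438 (TMM) or -0.340 (relative to the median gene) between the normal groups. Its ratio to Cd48 between the normal groups became 0.344 with the background subtracted. The ratio of Procr to Cd34 in AML against whole marrow turned from 0.41 to -0.0432 with a pseudocount of 5, and ran from -0.209 (without whole marrow replicate 3) to 0.828 over left-out libraries. Ratios passed an adjusted exact permutation p of 0.05 only without AML replicate 6 (adjusted 0.0286 in 3 tests): over left-out libraries Slamf1 to Cd48 ran from -3.02 to -2.42 against whole and from -2.52 to -1.91 against lineage-negative marrow, and Cd34 to Ly6a from -6.66 to -5.85 against lineage-negative marrow. The cause of these changes was not tested. Same-numbered samples of different groups had a mean correlation of 0.014 over 12 pairs. The 4 pairs of whole and lineage-negative marrow had correlations of 0.0898, 0.171, -0.0126 and -0.00814. So few pairs cannot tell whether same-numbered samples came from the same animal, which the labels do not give. With a replicate block 6 and 1, 3 and 4, and 6 and 2 markers were called higher and lower in the 3 comparisons. The added call was Esam between the normal groups (1.01, limma adjusted p = 0.0457). Tek and Procr in whole marrow lie near the receptor background, and Tek in 3 AML libraries lies at or under 3 reads, which limits those values. Leaving out AML replicates 5 and 6 together, the AML libraries with the most background, changed no direction and no call among the 10 markers.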
